A study of Mus musculus with 2 samples.

Results

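Osteopontin (Spp1, ENSMUSG00000029304) and CD44 (Cd44, ENSMUSG00000005087), a secreted ligand and a cell-surface receptor for it, were followed cell by cell in biliary epithelial cells of mouse liver. They are 2 of the 55415 genes counted, and they were chosen by name. The cells came from 1 library of genotype Sox9cKO, described by the series as deficient in Sox9, and 1 library of genotype Sox9con. Age, strain, the Cre line and the number of animals are not given in the sources used here, and nothing else is stated of what the libraries share beyond tissue, cell type and fixation. After fixation the cells went through split-pool barcoding, in which each cell keeps its own RNA and picks up a barcode in each round of pooling and splitting. The cells compared are the biliary fraction, 2612 cells labelled Sox9cKO and 3380 cells labelled Sox9con.

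Osteopontin is an acidic, phosphorylated secreted protein of bone, kidney and inflamed tissue. In the liver it is made by bile duct cells and by some macrophages, and it is widely used as a marker of the biliary lineage. It binds integrins, above all those with an alpha v chain, through an RGD motif, and it also binds CD44. CD44 is a transmembrane glycoprotein whose main ligand is hyaluronan, is linked to the actin cytoskeleton through ezrin, radixin and moesin, and is made in several splice forms. Sox9, the gene targeted here, is a transcription factor of bile duct cells, and its binding motif lies in the SOX motif family.

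The stretches before the starts of both genes are shown because the libraries differ in the label of a transcription factor, and because the letters let other factors discussed here be looked up. They are the 250 bases before the annotated start in RefSeq, build GRCm38.p6, written 5′ to 3′ along the gene's strand. For Spp1 this is chr5:104434861-104435110 on the plus strand, and for Cd44 chr2:102901666-102901915 on the minus strand. Capitals mark matches to the SOX motif (ACAAT or ACAAAG), the RUNX motif (ACCACA), the AP-1 motif (TGANTCA) and the CCAAT box, each read on both strands.
Spp1: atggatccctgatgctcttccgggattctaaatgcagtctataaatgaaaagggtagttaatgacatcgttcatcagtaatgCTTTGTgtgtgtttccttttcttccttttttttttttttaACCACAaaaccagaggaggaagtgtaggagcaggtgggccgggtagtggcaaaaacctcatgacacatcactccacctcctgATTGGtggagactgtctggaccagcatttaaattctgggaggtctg
Cd44: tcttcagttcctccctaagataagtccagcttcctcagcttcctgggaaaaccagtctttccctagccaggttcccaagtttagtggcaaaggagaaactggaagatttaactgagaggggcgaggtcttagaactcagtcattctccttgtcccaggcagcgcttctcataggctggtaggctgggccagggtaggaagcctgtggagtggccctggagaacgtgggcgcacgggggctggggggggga
The Spp1 stretch held 1 SOX match, read on the opposite strand as CTTTGT and beginning 168 bases before the start. It also held a RUNX match 128 bases and a CCAAT match 46 bases before the start. An E-box (CANNTG, left in lower case) was found 98 bases before the start, and no AP-1 or TEAD (GGAATG) match. The Cd44 stretch held none of these 6 motifs. Such matches are common: of 32851 RefSeq promoters cut to the same length, 38.8% held a SOX match, 14.0% a RUNX match, 33.8% a CCAAT match, 66.2% an E-box, 12.6% a TEAD match and 6.75% an AP-1 match. A match is a description of the letters and not a binding site. A further Spp1 start listed by RefSeq is not shown.

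Sox9 itself did not clearly separate the libraries, so both are called by their labels, and every direction below rests on the label. Sox9 was at 122 CPM (counts per 1000000 UMIs, the molecules counted) in cKO-labelled cells and 145 CPM in control-labelled cells. Between the first-round wells, into which each library's cells were split in the first barcoding round, it ran from 102 to 145 CPM in the 5 cKO-labelled wells and from 74.3 to 220.2 CPM in the 4 control-labelled wells, so the wells overlapped. The biliary fraction held 14425861 and 12204578 UMIs, with a median of 5126 UMIs per cell in cKO-labelled and 3226 in control-labelled cells. All 11 biliary markers other than Spp1 were at 50 CPM or more in it. No cell barcode was shared by the libraries. Of the other marker lists in the biliary fraction, none of 10 endothelial, 10 macrophage or 10 T or NK cell markers reached that level in either library. Of 10 hepatocyte markers 3 did, and of 10 mesenchymal markers 1 did. A cluster of 17 cells led by Dcn, Myh11 and Col1a2, genes of fibroblasts and smooth muscle, lay inside the fraction, and leaving it out gave log2 ratios of -0.98 for Spp1 and 0.09 for Cd44. With 1 library per group there is no test and no p-value, and each interval given is a 95% interval that covers counting error only. Wells and libraries cannot be told apart in this layout, and wells of 1 library serve only as a technical spread.

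Spp1 was lower in the cKO-labelled library, while Cd44 was at nearly the same level in both. Spp1 had 30182 UMIs in cKO-labelled biliary cells, a level of 2092 CPM (2069 to 2116). It had 50284 UMIs in control-labelled cells, a level of 4120.1 CPM (4084 to 4156). The log2 ratio of cKO-labelled over control-labelled was -0.98 (-0.998 to -0.957), or 1.97-fold higher in the control-labelled library. Of 9341 genes with at least 200 UMIs, 179 (1.92%) had a ratio at or below that of Spp1. As background, 3.97% of those genes were at least 2-fold apart, 2.21% of them with more and 1.77% with less in cKO-labelled cells, and the median ratio of all of them was -0.07. Cd44 had 22660 UMIs, or 1571 CPM (1550.4 to 1591), in cKO-labelled cells and 18043 UMIs, or 1478 CPM (1457 to 1500.1), in control-labelled cells. Its log2 ratio was 0.09 (0.06 to 0.12).

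By first-round well, Spp1 levels were 2259 CPM in A11, 1588 in A12, 2066 in B1, 2264 in B2 and 2491 in B3 of the cKO-labelled library. In the control-labelled library they were 2828 CPM in D9, 4751 in D10, 5180 in D11 and 4388 in D12. The wells of the libraries did not overlap, but D9 lay nearer to the highest cKO-labelled well than to the other control-labelled wells. The mean over wells was 2134 ± 340.1 CPM (SD, n = 5 wells) and 4287 ± 1025 CPM (SD, n = 4 wells). Spp1 was lower in the cKO-labelled well in 20 of 20 pairs of wells, by log2 ratios from -1.71 to -0.18. As background, 8.4% of tested genes were lower in every cKO-labelled well and 7.55% higher in every one, so Spp1 shares this order of wells with many genes. The ratio was below 0 in each of the 8 sublibraries, the sets of cells sequenced as separate libraries, at -1.08 to -0.78.

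Cd44 levels were 1372 CPM in A11, 1570.4 in A12, 1679 in B1, 1616 in B2 and 1572 in B3. They were 1429 CPM in D9, 1556 in D10, 1470 in D11 and 1469 in D12. The wells overlapped, with A11 the lowest of all 9. Cd44 was lower in the cKO-labelled well in 4 of the 20 pairs, with ratios from -0.18 to 0.23. The library difference of Cd44 therefore did not exceed the spread between wells, and it ran from -0.07 to 0.19 over the sublibraries.

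**Figure D1:**
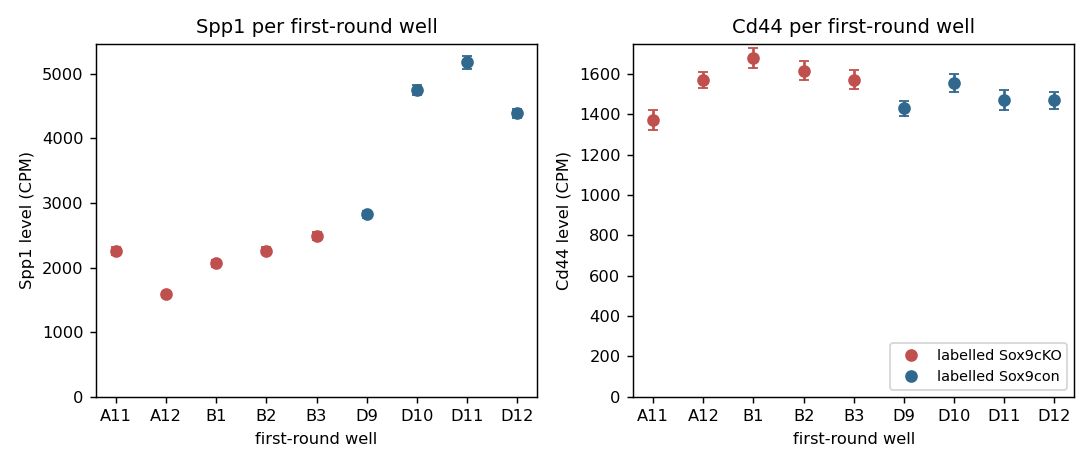
Levels of Spp1 (left) and Cd44 (right) in CPM of the biliary fraction of each first-round well, with exact 95% Poisson intervals as bars. Spp1 lies between 1588 and 2491 CPM in the 5 Sox9cKO wells and between 2828 and 5180 CPM in the 4 Sox9con wells, while the Cd44 wells overlap.

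In each library the well with the most UMIs per cell had the lowest Spp1 level. Well A12 had a median of 6479 UMIs per biliary cell, against 3537 to 5438 in the other cKO-labelled wells. Well D9 had a median of 4344, against 2391 to 3334 in the other control-labelled wells, and also the highest Sox9 level of all wells. Without D9 the Spp1 log2 ratio was -1.18, and without A12 it was -0.86.

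The level of Spp1 changed with the depth of the cell in the control-labelled library and hardly at all in the other. Control-labelled cells with at least 1000 but fewer than 2000 UMIs were at 6496 CPM of Spp1. The level was 5470 CPM in cells from 2000 UMIs, 4378 from 3000, 3482 from 4000, 2615 from 6000 and 2882 from 8000 UMIs on. Cells of the cKO-labelled library stayed within 1907 to 2152 CPM over the same 6 ranges of depth. The log2 ratio between the libraries was -1.77 (-1.91 to -1.63) in the shallowest cells, -1.08 (-1.14 to -1.02) from 3000 to 4000 UMIs and -0.43 (-0.49 to -0.37) in the deepest. Spp1 was lower in the cKO-labelled library in all 6 ranges, and the size of the difference depended on which cells were compared.

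The fall with depth was seen in each control-labelled well and in each cluster with enough cells. From cells under 3000 UMIs to cells of 6000 or more, Spp1 went from 4191 to 2215 CPM in D9, from 6209 to 2902 in D10, from 6031 to 3424 in D11 and from 5644 to 3647 in D12. The deepest group held 173 cells in D9 and only 17 in D11. Within the cluster led by Hilpda and Ly6a, the largest of the control-labelled library, the level was 6675 CPM under 3000 UMIs, 5368 from 3000 to 6000 and 4184 at 6000 or more. Over all control-labelled biliary cells the log2 ratio of deep over shallow cells was -1.08 for Spp1, and 281 of 9341 genes (3.01%) were at or below it. As background, 4.2% of genes were at least 2-fold lower in the deep cells, and the median gene was at -0.10. In the cKO-labelled library the same ratio for Spp1 was 0.06. The part of depth in the difference between the libraries was not tested beyond these ranges.

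Cd44 went the other way with depth in control-labelled cells, from 1037 CPM in cells of fewer than 2000 UMIs to 1774 CPM from 6000 to 8000 UMIs. In the cKO-labelled library it was between 1294 and 1689 CPM with no steady order. The log2 ratio of Cd44 between libraries accordingly changed sign, from 0.32 (0.12 to 0.51) in the shallowest cells to -0.19 (-0.27 to -0.11) in the deepest.

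**Figure D2:**
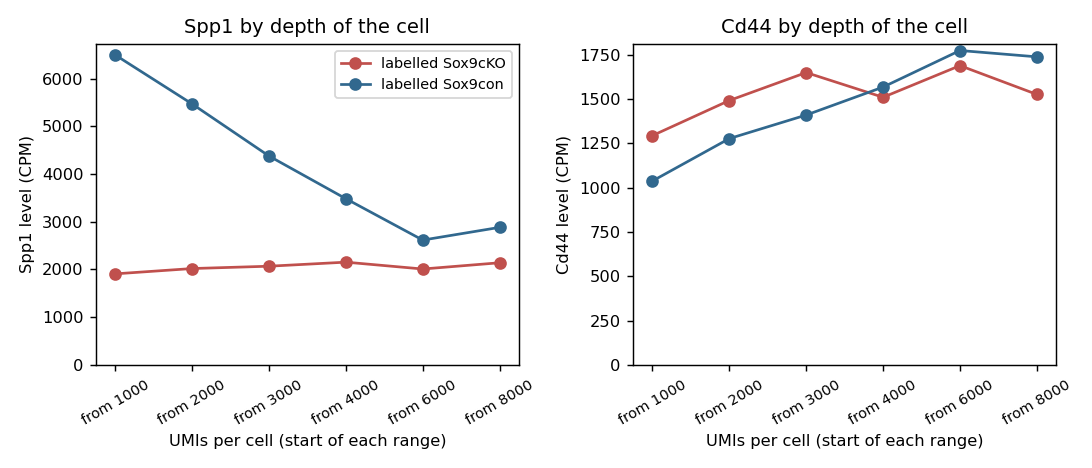
Levels of Spp1 (left) and Cd44 (right) in CPM, summed over biliary cells in 6 ranges of UMIs per cell, with 1 line per library. Spp1 of the Sox9con library falls from 6496 to 2615 CPM before the last range, while the Sox9cKO library stays between 1907 and 2152 CPM.

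To compare single cells at equal depth, each biliary cell was thinned at random to 2000 UMIs, which left 2472 cKO-labelled cells (140 shallower cells left out) and 2811 control-labelled cells (569 left out). Most cells of both libraries then still had an Spp1 UMI, and the libraries differed along the whole range rather than by a group of cells without the transcript. No Spp1 UMI was seen in 14.2% of cKO-labelled cells (12.9 to 15.7) and in 6.90% of control-labelled cells (5.99 to 7.90). Before thinning 6.58% and 3.14% of cells had none. The median cell had 3 UMIs of Spp1 in the cKO-labelled library, with quartiles of 1 and 6, and 6 UMIs in the control-labelled library, with quartiles of 3 and 12. The 90th percentiles were 9 and 20 UMIs, and the highest cells had 31 and 58. Cells with 20 or more Spp1 UMIs made up 0.566% of the cKO-labelled and 10.1% of the control-labelled cells. Thinned to 4000 UMIs, which left 1799 and 1093 deeper cells, the medians were 7 and 10 UMIs of Spp1.

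Spp1 was spread far more unevenly over cells than counting alone would give. Its variance over cells was 3.90 times its mean in cKO-labelled and 7.60 times in control-labelled cells, where sampling of a uniform level gives 1. By well the ratio was 3.18 to 4.08 and 4.96 to 7.90, with D9 again the lowest control-labelled well. Where cells differ in level this ratio also rises with the mean, which was 4.15 and 8.66 UMIs. It therefore does not rank the libraries or wells by unevenness. The tenth of cells with the most Spp1 held 31.8% and 31.5% of all Spp1 UMIs, nearly the same at this depth although the levels differed. Thinned to 1000 UMIs these shares were 34.5% and 32.0%, and at 4000 UMIs 30.1% and 31.8%. Their order changed with depth, so this share does not rank the libraries either. Cd44 had a similar shape in both libraries. At equal depth 24.8% and 24.5% of cells had no Cd44 UMI, the median was 2 UMIs in both, and the tenth of cells with the most held 33.3% of Cd44 UMIs in both.

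**Figure D3:**
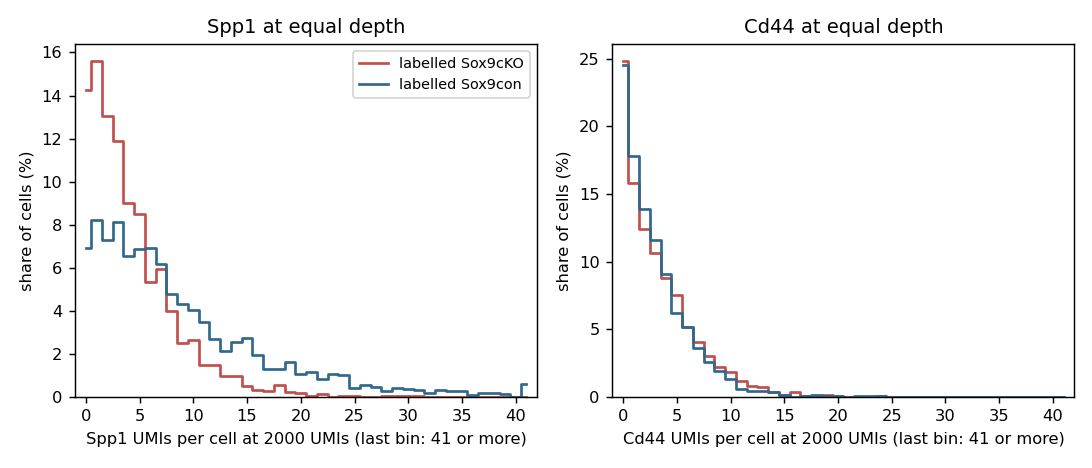
Share of biliary cells (percent) by the number of Spp1 (left) and Cd44 (right) UMIs per cell after thinning each cell to 2000 UMIs. The Sox9con cells reach further to the right for Spp1, with a median of 6 against 3 UMIs, while the Cd44 curves of both libraries lie nearly on each other.

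The biliary cells were clustered with Spp1, Cd44 and Sox9 left out, so that the levels of the members by cluster were not set by the clustering. Clusters are called by their leading genes and not by a cell type. Of 9 clusters, 6 held at least 50 cells of each library, and clusters mostly of 1 library may reflect that library rather than a kind of cell. Of these 6, the cluster led by Hilpda and Ly6a (138 and 1369 cells) and the cluster led by Adgrv1 (84 and 726 cells) were mostly control-labelled. Those led by Ces1c, Csf3 and Slit3 and by Hp and Serpina1b were almost entirely cKO-labelled, with 862 and 503 cells. The Car4 cluster also has Msln, a mesothelial marker, among its leading genes. The Spp1 ratio over all kept cells, whatever their class, was -0.97.

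Among clusters with at least 50 cells of a library, Spp1 was lowest in those led by mucin genes, and Cd44 was highest in the one led by Muc6. The small cluster led by Dcn, with 10 and 7 cells, is not ranked and stood at 88.5 and 112 CPM of Spp1. In the cluster led by Ltf and Muc4, a secreted iron-binding protein and a membrane mucin, Spp1 was at 505 CPM in cKO-labelled and 899.6 CPM in control-labelled cells. In the cluster led by Muc6, a gel-forming mucin of gastric and peribiliary glands, it was at 868 and 1615 CPM. In the Car4, Msln and Tff2 cluster it was at 1529 and 2022 CPM. In control-labelled cells it was highest in the clusters led by Hilpda, by Adgrv1, and by Dnah12 and Mmp25, at 5637, 5539 and 6162 CPM. The same clusters were at 2169.8, 2617 and 2495 CPM in cKO-labelled cells. In that library the largely cKO-labelled cluster led by Ces1c was the highest, at 2749 CPM. The one led by Hp was at 2455 CPM, above the Hilpda cluster. From the lowest to the highest ranked cluster Spp1 differed 5.44-fold in cKO-labelled and 6.85-fold in control-labelled cells. With the finer clustering at resolution 0.8 these were 3.55-fold and 5.98-fold. Clusters took up 15.6% and 23.7% of the variance of thinned Spp1 counts. Most of that variance thus lay between cells of 1 cluster, a part that also includes counting error.

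Cd44 in the Muc6 cluster was at 2925 CPM in cKO-labelled and 2430.3 CPM in control-labelled cells, its highest level among the ranked clusters of both libraries. At resolution 0.8 the cluster led by Ltf and Muc4, with 111 cKO-labelled and 2 control-labelled cells, was higher in the cKO-labelled library, at 3379 CPM against 2906 CPM in the Muc6 cluster. In the Dnah12 cluster Cd44 was at 802 and 406 CPM, its lowest among the ranked clusters of both. The Ltf cluster stood at 2756 and 1560 CPM and the Car4 cluster at 1687 and 1806 CPM. The Hilpda cluster stood at 1805 and 1342 CPM and the Adgrv1 cluster at 1102 and 1033 CPM. The order of clusters by Cd44 was thus roughly the reverse of that by Spp1.

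**Figure D4:**
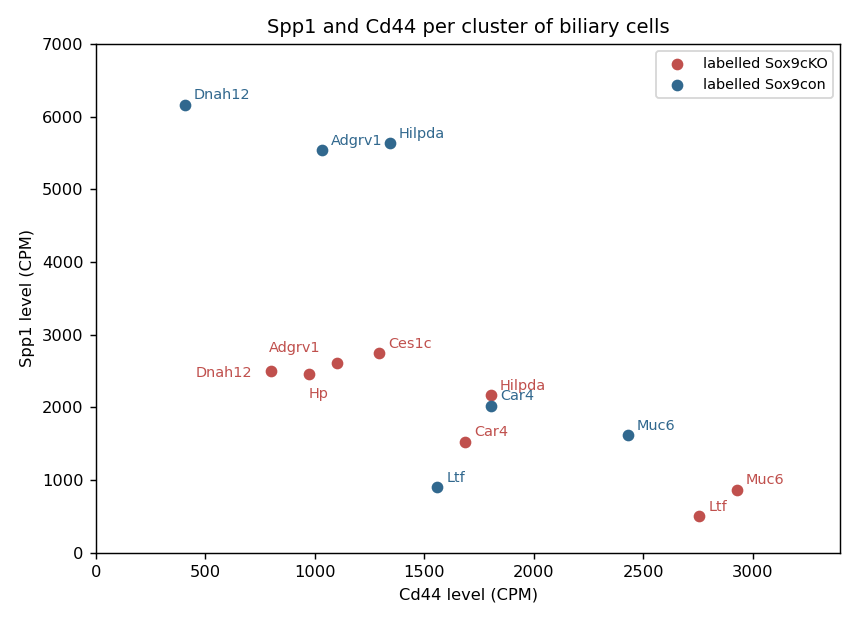
Level of Spp1 (vertical axis) against the level of Cd44 (horizontal axis), both in CPM, in each cluster with at least 50 biliary cells of the library, labelled by a leading gene. The clusters led by Muc6 and Ltf lie low on the Spp1 axis, and in the Sox9con library the clusters led by Dnah12, Adgrv1 and Hilpda lie between 5539 and 6162 CPM.

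Spp1 was lower in the cKO-labelled library in each of the 6 shared clusters, by differing amounts. The log2 ratio was -1.38 in the Hilpda cluster, -1.30 in the Dnah12 cluster, -1.08 in the Adgrv1 cluster, -0.90 in the Muc6 cluster, -0.83 in the Ltf cluster and -0.40 in the Car4 cluster. The smallest of these ratios depended on the clustering: at resolution 0.3 the shared cluster led by Msln, Slit3 and Tff2 was at 1936 and 2002 CPM, a ratio of -0.05 (-0.0995 to 0.0033) that did not exceed counting error. With each cluster given the same weight in both libraries, the Spp1 ratio was -0.84, against -0.98 as the cells were found. The weights were those of a Mantel-Haenszel ratio, largest for clusters with many UMIs in both libraries. That ratio is not a plain mean over clusters. By well, all 20 pairs were lower in the Hilpda, Adgrv1 and Ltf clusters, 19 of 20 in the Muc6 and Dnah12 clusters and 16 of 20 in the Car4 cluster. As background, 4.17% of 4465 genes were lower in every cKO-labelled well of the Hilpda cluster, 4.5% of 2780 in the Adgrv1 cluster and 7.22% of 1634 in the Ltf cluster. Some of these wells held as few as 12 cells of the Adgrv1 cluster. D9 was the lowest control-labelled well for Spp1 in all 6 clusters, and without it every pair was lower in each of them. Leaving out the lowest control-labelled well cannot lower the share of such pairs, so this only locates the exceptions in D9.

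Cd44 differed by cluster in its ratio between the libraries. In the Ltf cluster it was 2441 to 2955 CPM over the cKO-labelled wells and 1381 to 1703 CPM over the control-labelled wells, a log2 ratio of 0.82 in the sums. No pair of wells was lower there, and 12.5% of genes tested in that cluster were likewise higher in every cKO-labelled well. This difference depended on the clustering. At resolution 0.8 the cluster led by Ltf and Muc4 held 111 and 2 cells, so the libraries could not be compared in it. In the cluster led by Muc3, Slc28a2 and Ly6m, with 27 and 211 cells, Cd44 was at 1437 and 1512 CPM. The ratio was also above 0 in the Dnah12 cluster, at 0.98, but its wells overlapped, with 280.2 to 1187 CPM against 297 to 459.5 CPM. In the Hilpda, Muc6, Adgrv1 and Car4 clusters the ratios were 0.43, 0.27, 0.09 and -0.10, all with overlapping wells.

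Across cells at equal depth Spp1 and Cd44 ran weakly in opposite directions. Spearman's rho was -0.22 over 2472 cKO-labelled cells and -0.22 over 2811 control-labelled cells. It lay between -0.28 and -0.18 in all 9 wells. Cells of a library share their preparation and their sequencing, and rho is given as a description. The thinned cells of each library were also put into 4 groups at the quartiles of their Spp1 UMIs. In cKO-labelled cells Cd44 was at 2046 CPM in the group with the fewest Spp1 UMIs, then 1634, 1333 and 1162 CPM in the group with the most. In control-labelled cells the same levels were 1788, 1457, 1277 and 1098 CPM. Within clusters the mean rho was 0.02 and -0.04. Single clusters ran from -0.10 to 0.19 in cKO-labelled and from -0.13 to 0.15 in control-labelled cells, so there was no common direction inside them.

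Sox9 detection went with slightly more Spp1. Thinned cells with a Sox9 UMI were at 2323 CPM of Spp1 (2228 to 2422) against 2015 CPM (1971 to 2060) without one in the cKO-labelled library. In the control-labelled library the levels were 4544 CPM (4422 to 4668) and 4272 CPM (4211 to 4333). The direction was the same in 5 of 5 and 4 of 4 wells. The rank correlation was only 0.06 and 0.05, and within clusters it was 0.06 and -0.05, so in control-labelled cells the direction was not kept inside clusters. The step between cells with and without a Sox9 UMI was small beside the difference between the libraries. A cell with no Sox9 UMI at this depth may still express the gene.

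The genes whose counts rose most with Spp1 from cell to cell were Apoe, Cp and Clu, and those that fell most were Dmbt1, Lmo7 and Ano1. Among 3184 genes seen in at least 10% of thinned cells of both libraries, 83 (2.61%) had a rho of 0.1 or more in both libraries and 101 (3.17%) had -0.1 or less in both. Named here are the 10 genes at each end by mean rho that also had 1 sign in all 9 wells. Apoe, the lipid carrier apolipoprotein E, was first, with a rho of 0.39 in cKO-labelled and 0.60 in control-labelled cells. For levels, low-Spp1 cells are here those with at most 1 Spp1 UMI in the cKO-labelled (738 cells) and at most 3 in the control-labelled library (858 cells). High-Spp1 cells are those with at least 6 (685 cells) and at least 12 UMIs (741 cells), so that cells at the upper quartile are included. Apoe was at 203 CPM in low-Spp1 and 979 CPM in high-Spp1 cells of the cKO-labelled library, and at 155 and 2598 CPM in the control-labelled library. Ceruloplasmin (Cp), the copper-carrying ferroxidase, had a rho of 0.35 and 0.47, and clusterin (Clu), a secreted chaperone, 0.38 and 0.44. Alb, which encodes albumin, had 0.32 and 0.40. Cxcl1, a neutrophil chemokine, C3, the central complement component, and Lcn2, the iron-scavenging lipocalin, had 0.26 and 0.29, 0.35 and 0.17, and 0.25 and 0.21. The list closes with the transcription factor Sox5 (0.25 and 0.34), the neuregulin receptor Erbb4 (0.20 and 0.32) and the exchange factor Kalrn (0.22 and 0.27).

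Depth and mitochondrial share before thinning moved with Spp1 in the control-labelled library. Low-Spp1 and high-Spp1 cells there had medians of 4026 and 3139 UMIs and mitochondrial shares of 6.46% and 5.22%, and Spp1 had a rho of -0.25 with UMIs per cell and -0.27 with the mitochondrial share. In the cKO-labelled library the medians were 5257 and 5300 UMIs and 6.06% and 5.77%, with rho of 0.02 and -0.03. Their part in the relations of single genes with Spp1 was not tested.

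Alb and Ttr are hepatocyte genes, so the hepatocyte markers were read over all UMIs of the same low-Spp1 and high-Spp1 cells. The 10 markers summed to 825 CPM in low-Spp1 and 1549 CPM in high-Spp1 cells of the cKO-labelled library, and to 643 and 1299.6 CPM in the control-labelled library. Of the 10, only Alb, Ttr and Hnf4a reached 50 CPM in any of these groups. Alb went from 321 to 875 CPM and from 111 to 648 CPM. Ttr went from 53.0 to 102 CPM and from 120.2 to 245 CPM. Hnf4a, a transcription factor of hepatocytes, went from 419 to 537 CPM in cKO-labelled cells and from 376 to 364 CPM in control-labelled cells. The other 7, among them Cyp2e1, Cyp3a11, Cps1 and Pck1, enzymes of mature hepatocytes, stayed between 0 and 20.8 CPM, and Cyp2e1 was at 0 in 2 of the 4 groups. The macrophage markers, which matter because macrophages also make osteopontin, summed to 38.6 and 37.9 CPM in the cKO-labelled groups and to 32.7 and 24.7 CPM in the control-labelled groups. Clec4f, C1qa, Cd5l, Adgre1 and Lyz2 were at 0 in all of these groups. The part of hepatocyte RNA in the relation of Alb with Spp1 was not tested further.

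Among the genes that fell as Spp1 rose, Dmbt1, a secreted mucin-like scavenger receptor, came first with a rho of -0.37 in cKO-labelled and -0.47 in control-labelled cells. In the cKO-labelled library it went from 4329 CPM in low-Spp1 cells to 762 CPM in high-Spp1 cells. Lmo7, an actin-linked adaptor at cell junctions, had a rho of -0.32 and -0.42, and Ano1, a calcium-activated chloride channel, -0.34 and -0.38. Meis2, a homeobox factor, had -0.23 and -0.41, Cdh13, a cadherin anchored to the membrane, -0.29 and -0.33, and Eps8, an actin regulator, -0.25 and -0.36. The remaining genes were Ceacam1, an adhesion molecule (-0.24 and -0.36), the large scaffold protein Ahnak (-0.21 and -0.37), thrombospondin-1 (Thbs1; -0.29 and -0.28) and galectin-3 (Lgals3; -0.21 and -0.36).

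**Figure D5:**
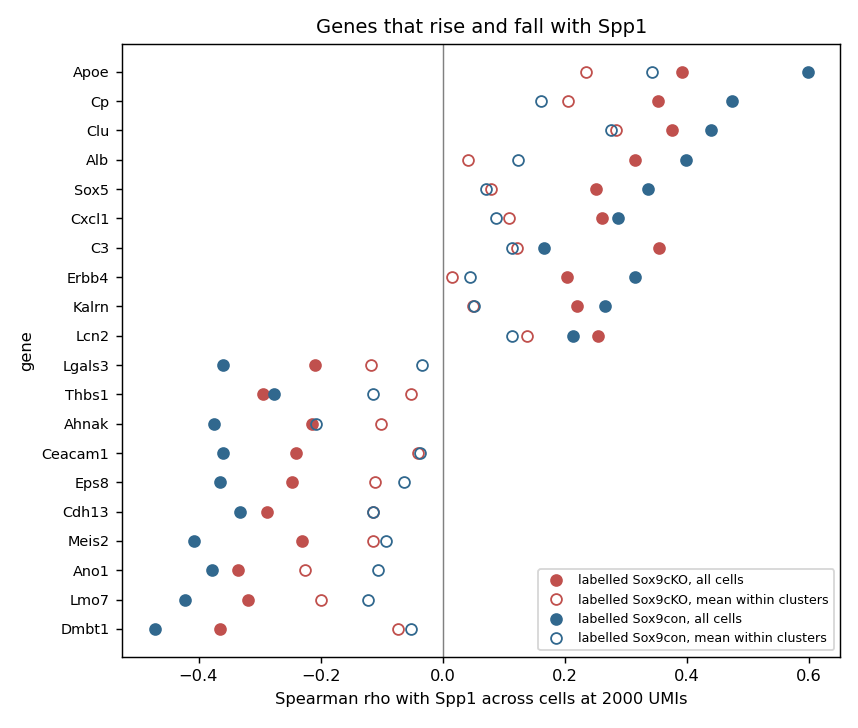
Spearman's rho with Spp1 across thinned biliary cells (horizontal axis) of the 10 genes that rise most and the 10 that fall most with it, filled circles over all cells of a library and open circles as the mean within clusters. Apoe is the highest, at 0.39 and 0.60, and each open circle lies on the same side of 0 as its filled circle, mostly closer to 0.

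Much of these relations lay between clusters, and some stayed within them. Averaged within clusters, 6 of the 83 genes kept a rho of 0.1 or more in both libraries and 6 of the 101 kept -0.1 or less. Apoe kept 0.23 and 0.34, Clu 0.28 and 0.28 and Cp 0.21 and 0.16. Ano1 kept -0.23 and -0.11, Lmo7 -0.20 and -0.12 and Ahnak -0.10 and -0.21. Erbb4 was at 0.01 and 0.05 and Ceacam1 at -0.04 and -0.04, too near 0 to be a finding in sparse counts.

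A few genes had rho of opposite sign in the libraries. Pde4d, a cAMP phosphodiesterase, had a rho with Spp1 of 0.19 in cKO-labelled and -0.22 in control-labelled cells, the widest gap of all genes ranked. Ltbp1, which tethers latent TGF-beta, had 0.08 and -0.23, and Oxr1 0.08 and -0.22. Within clusters these were -0.01 and 0.00 for Pde4d, 0.02 and -0.09 for Ltbp1 and 0.04 and 0.00 for Oxr1. The mix of clusters differs between the libraries, and its part in these signs was not tested further.

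The genes most like Cd44 were in part those that ran against Spp1. Dmbt1 had a rho with Cd44 of 0.40 and 0.28 and Ceacam1 of 0.27 and 0.23. Itgb6, the beta chain of the integrin alpha v beta 6, had 0.33 and 0.24. Actb, beta-actin, had 0.31 and 0.25, and tropomyosin 1 (Tpm1) 0.26 and 0.25. Itgb6 kept 0.22 and 0.13 within clusters and Actb 0.16 and 0.14, while Ceacam1 was at 0.02 and 0.07. At the other end were Alb (-0.40 and -0.28), Apoe (-0.32 and -0.21), Sox5 (-0.27 and -0.23) and the immediate early genes Atf3 (-0.23 and -0.27) and Egr1 (-0.24 and -0.25).

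Endothelial-like cells, which should lack osteopontin transcripts, were used as the background of Spp1 UMIs. They had a similar Spp1 level in both libraries: 281 CPM (220 to 355) from 71 UMIs in 83 cKO-labelled cells, and 277 CPM (224 to 338) from 96 UMIs in 114 control-labelled cells. A UMI was seen in 25 of 83 cells (30.1%) and 37 of 114 cells (32.5%), at median depths of 2355 and 2328 UMIs. Thinned to 1000 UMIs, 15.7% and 17.5% of endothelial-like cells had one, against 73.4% and 87.1% of biliary cells. The biliary shares thus stood far above the endothelial-like share in both libraries, while the endothelial-like shares did not differ beyond counting error.

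As a share of the biliary level, endothelial-like Spp1 was 13.4% (10.5 to 17.0) in cKO-labelled and 6.72% (5.45 to 8.21) in control-labelled cells. Of 18 other biliary-restricted genes, 15 were at 200 CPM or more in biliary cells of both libraries, and their median share was 11.1% and 10.5%. They ran from 4.27% (Bicc1) to 16.1% (Krt8) and from 5.57% (Cldn4) to 21.0% (Sorbs2), so Spp1 lay within their range in both. Spp1 lay high in that range in cKO-labelled cells, above 12 of the 15 genes, and low in control-labelled cells, above 1 of the 15. The share was higher in the cKO-labelled library for 6 of the 15, among them the keratins Krt8 and Krt18, and higher in the control-labelled library for the other 9. Most of the Spp1 UMIs came from endothelial-like cells that also had an Epcam or keratin UMI, 61 of 71 and 81 of 96, and single cells held up to 33 and 19. Without such cells the level was 101 CPM (48.2 to 185) in 39 cells and 108 CPM (60.5 to 178) in 54 cells. Cd44 in endothelial-like cells was at 131 and 141 CPM, or 8.32% and 9.56% of its biliary level.

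The other genes of the SIBLING family, to which osteopontin belongs, were not seen in biliary cells: Ibsp, Dmp1, Mepe and Dspp had 0 UMIs in both libraries. Of 11 integrin chains that form osteopontin receptors, 7 had at least 200 UMIs. None of the 7 was 2-fold apart (3.97% of all genes tested were), and the median log2 ratio was 0.01, against -0.07 for all genes. Itgav, the alpha v chain, was at 1180.0 CPM in cKO-labelled and 827 CPM in control-labelled cells, a log2 ratio of 0.51. It was 1087 to 1243 CPM over the cKO-labelled wells and 794 to 886 CPM over the control-labelled wells. Itgb6 was at 591 and 360.2 CPM, a ratio of 0.71, with wells of 554 to 676 and 357 to 365 CPM. Neither set of wells overlapped, and 7.55% of all genes tested were likewise higher in every cKO-labelled well. Itgb1, the common beta 1 chain, was at 458 and 453 CPM with overlapping wells. Itgb8 was at 58.0 and 77.2 CPM (-0.41), and the ratios of Itgb5, Itga5 and Itga9 were between -0.17 and 0.09, all with overlapping wells. Itgb3, the beta chain of the classical osteopontin receptor, had 25 UMIs and 1 UMI and so was barely seen. Itgb6 ran with Cd44 and against Spp1 from cell to cell, with rho of -0.21 and -0.27 for Spp1, and Itgav had 0.29 and 0.13 with Cd44.

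Of 10 enzymes that modify or cleave osteopontin, 6 had at least 200 UMIs, 2 of these were higher by 2-fold or more in cKO-labelled cells (2.21% of all genes tested were), and the median ratio was 0.25. Mmp7, matrilysin, which cuts osteopontin, was at 109 CPM in cKO-labelled and 23.8 CPM in control-labelled cells, a log2 ratio of 2.19. Its wells were 90.2 to 127 CPM and 16.4 to 33.3 CPM. Plau, the urokinase plasminogen activator, was at 26.5 and 7.37 CPM, a ratio of 1.84, with wells of 15.8 to 41.7 and 5.14 to 9.46 CPM. Neither overlapped between libraries, as for the 7.55% of all genes tested that were higher in every cKO-labelled well. Tgm2, a transglutaminase that cross-links osteopontin, was at 181 and 123 CPM (0.56), with overlapping wells. The ratios of Fam20c, which phosphorylates secreted proteins, and of the cathepsins Ctsd and Ctsb were between -0.18 and -0.07. F2, prothrombin, had 27 and 2 UMIs.

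On the side of CD44, the hyaluronan genes were low. Of 11 genes of CD44 ligands and hyaluronan turnover, 3 had at least 200 UMIs, with a median ratio of -0.34. That median was -0.15 over the 10 with at least 20 UMIs, -0.16 with no minimum and -0.20 with DESeq2 size factors. Cemip2, a cell-surface hyaluronidase, was at 244 and 199.8 CPM (0.29) and higher in every cKO-labelled well. Hyal1, a lysosomal hyaluronidase, was at 9.08 and 13.6 CPM (-0.58) and lower in every one, and Habp2, a hyaluronan-binding protease, was at 31.1 and 39.5 CPM (-0.34) with overlapping wells. Of all genes tested, 7.55% were higher and 8.4% lower in every cKO-labelled well. The synthases Has1, Has2 and Has3 had 26, 2 and 115 UMIs in all. None of 5 other hyaluronan receptors reached 200 UMIs in biliary cells. Stab2, Stab1 and Lyve1, which are endothelial, were at 2.84 and 4.34, 2.43 and 3.11, and 1.11 and 1.56 CPM there.

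Of 10 CD44 partners and linkers, 9 had at least 200 UMIs, 1 was at least 2-fold higher (2.21% of all genes tested were), and the median was 0.14. Slc7a11, the cystine transporter stabilised by a CD44 splice form, was at 10.4 and 4.26 CPM (1.28), and its wells overlapped. Cd74, a CD44 partner and the invariant chain of class II antigen presentation, was at 82.8 and 43.0 CPM (0.94). Msn, moesin, was at 73.1 and 41.2 CPM (0.83). Cd74 and Msn were higher in every cKO-labelled well, as were 7.55% of all genes tested. The other linkers Ezr, Rdx, Nf2 and Ank3 and the receptors Met and Erbb2 had ratios between -0.10 and 0.19. The 9 genes for CD44 shedding and splicing were all tested, none was 2-fold apart (3.97% of all genes tested were), and the median was 0.16. The sheddases Adam10 (208 and 166 CPM, 0.33) and Adam17 (71.9 and 62.6 CPM, 0.20) and the splicing factor Rbfox2 (164 and 137 CPM, 0.26) were higher in every cKO-labelled well, 3 of 9 against 7.55% of all genes tested. Esrp1, which drives inclusion of the variable CD44 exons, was at 95.8 and 85.4 CPM (0.17), with overlapping wells. Below 0 were the gamma-secretase subunit Psen2 (-0.43), the splicing factor Khdrbs1 (-0.16) and the membrane protease Mmp14 (-0.08). Counts per gene do not tell splice forms apart.

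Of 14 transcription factors known to act on either gene, 11 were tested. None of the 11 was 2-fold apart (3.97% of all genes tested were), and the median ratio was -0.16. Tead1, the DNA-binding partner of YAP, was at 846 CPM in cKO-labelled and 499 CPM in control-labelled cells (0.76), with wells of 781 to 864 and 402 to 553 CPM that did not overlap. As background, 7.55% of all genes tested were higher in every cKO-labelled well. Yap1 was at 162 and 155 CPM (0.07). Runx1, whose motif family has a match in the Spp1 stretch printed above, was at 205 and 183 CPM (0.16) with overlapping wells. From cell to cell Runx1 ran against Spp1, with rho of -0.20 and -0.27, and with Cd44, with 0.24 and 0.13. Jun, Fos, Egr1, Klf4, Tcf7l2 and Nfkb1 had ratios between -0.30 and 0.08, with overlapping wells.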

How the data were processed

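The deposited values are UMI counts per cell and gene, whole numbers per the file headers, for each of the 2 libraries, on a genome named mg39, given as GRCm39 in the submitters' processing notes. Which aligner, annotation release and rule for multi-mapping reads or for cell barcodes the authors used is not given in the sources used here. In the GENCODE annotation of another build, Spp1 overlaps Gm42793 on its own strand and Cd44 overlaps Gm23731 on the other, and reads they share cannot be told apart in these counts.

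Cells with at least 500 genes, 1000 UMIs and at most 15% mitochondrial UMIs were kept. Scrublet called 3 doublets among 6362 cells (0.0472%), and these were removed. With so few calls the cells are in effect not filtered for doublets, and whether the caller worked here was not tested. Cells of both libraries were clustered in scanpy 1.11.5 without integration (2000 variable genes, 30 components, 15 neighbours, Leiden resolution 0.5), and 12 clusters were named where at least 3 markers of a class reached 50 CPM. The biliary fraction, the cells left without the endothelial-like cells and an unnamed cluster of 17 and 11 cells, was then clustered again without Spp1, Cd44 and Sox9. CPM are a gene's UMIs summed over cells per 1000000 UMIs of those cells. The log2 ratio adds 0.5 counts at the mean library total. Intervals are exact: Poisson for levels, Clopper-Pearson for shares, conditional binomial for ratios. UMI intervals cover counting error only. The code was tested on simulated data.

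The members and all gene lists were chosen with earlier results of these data known. Named for likeness were the 10 genes at each end by mean rho with Spp1 and 1 sign in all wells, and 5 at each end for Cd44, without mitochondrial, ribosomal RNA and sex-linked genes. The 5 at the low end for Cd44 were added after their values were seen. The list genes with at least 20 UMIs were named or summarised by range, except 1 that is not reported here. Alternatives were edgeR 4.0.16 TMM and DESeq2 1.42.0 size factors (for scaling only, with no test), stricter cell filters, other depths, seeds and resolutions, and leaving out each well.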

Additional observations from a re-analysis of the deposited data

How the results depend on the processing

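The Spp1 log2 ratio stayed below 0 under every alternative run. It was -0.88 with TMM factors, -0.83 with DESeq2 size factors, -0.95 with a stricter cell filter and -1.18 as a mean over cells. At 2000 UMIs per cell it was -1.06, and with the same Mantel-Haenszel cluster weights in both libraries -0.84. In cells with 3000 to 6000 UMIs, a setting added after seeing the data, it was -0.86. Leaving out 1 well gave -1.18 to -0.86. In sublibraries s1, s2, s3, s5, s6, s7 and s8 alone it was -1.06, -0.86, -1.06, -1.02, -0.78, -1.02 and -1.08. The Cd44 log2 ratio was 0.18, 0.23, 0.046, 0.18, 0.15, 0.21 and 0.042 in the same order, 0.064 to 0.12 without 1 well, and 0.19, 0.15, 0.13, 0.16 and 0.15 in sublibraries s1, s3, s5, s6 and s7. It was 0.0055 in s4 and reversed to -0.072 in s2. Thinned to 4000 UMIs per cell, Spp1 was at 2103 CPM in cKO-labelled and 3260 CPM in control-labelled cells. This is a smaller difference than at 2000 UMIs, where the levels were 2075 and 4328 CPM. The TMM and DESeq2 scalings moved every ratio by 0.10 and 0.15, so that 246 genes were at least 2-fold higher and 115 lower with the former, and 273 and 93 with the latter, against 206 and 165.

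The number of genes that rose with Spp1 was 8 within clusters and 195 at 4000 UMIs per cell, against 83, and of those that fell 6 and 234, against 101. All 20 named genes kept their sign under the 4 alternatives for rho. They were picked by rho in these same cells, so the kept signs are in part given by the choice. The limit of 5% of cells changes which genes are ranked and not their rho. The median of the osteopontin enzymes reversed to -0.070 with no minimum of UMIs, and that of the transcription factors to 0.038 with a minimum of 20 UMIs and with none. The cause was not tested in any of these. No paired analysis was possible because each group has 1 library. Depth limits the low genes of the lists, and a share of cells with a UMI is read only at equal depth. The endothelial-like cells number 83 and 114, which bounds how well their level is known.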
